A study of Mus musculus with 8 samples.

Results

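The JAK-STAT genes described here are 10 of the 46078 genes in a table of read counts from mouse skin: the feedback inhibitors Cish, Socs1, Socs2 and Socs3, the transcription factors Stat3, Stat5a and Stat5b, the repressor Bcl6, and the receptor chains Il6st and Osmr. They were picked by name through their Ensembl identifiers, with results of these libraries already known, and all 10 passed the filter on low counts. The cells were Lgr5-traced cells sorted from the epidermis of mice of the strain labelled Lg5-egfp-ires-creert2/R26-tdTomato. In such mice an inducible Cre recombinase made by Lgr5-expressing cells of the hair follicle switches on a red fluorescent protein, which their progeny keep, so a sort can hold both the stem cells and their descendants. All animals had a skin injury, and the libraries were Treg-depleted (n = 4) or Treg-sufficient (n = 4), that is, from mice without or with regulatory T cells. Both conditions were run in 2 experiments, with 2 libraries apiece, numbered here so that replicates 1 and 2 come from experiment 1 and replicates 3 and 4 from experiment 2. The sources used here do not give the age of the mice, the kind of injury or the way the regulatory T cells were removed. They also do not say whether a library is 1 animal or a pool, so p-values measure the spread between these libraries, which may be technical.

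Cytokine receptors that lack an enzyme of their own use Janus kinases (JAKs) to phosphorylate STAT proteins, which then enter the nucleus and switch on target genes. Among these targets are the genes of the SOCS family, whose products bind the receptor or the kinase and shut the signal down, so that their transcripts are widely read as a record of recent signalling. In skin, Stat3 acts in keratinocytes downstream of interleukin-6 family cytokines, oncostatin M and interleukin-22, and is needed for wound closure and for renewed hair growth. Bcl6 is a DNA-binding repressor best known from germinal centre B cells and follicular helper T cells, and in T cells it and STAT5 oppose each other.

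Total counts ran from 22330729 to 29975347 per library. The libraries expressed the genes that define the labelled cells: Lgr5 stood between 289 and 539 CPM, the count scaled to a common library size (to the library total for these markers and for Xist, and to TMM-scaled totals for the values below), and the basal keratin Krt14 between 2422 and 8320. The leukocyte gene Ptprc reached at most 0.403 CPM. Of the T cell markers Cd3e reached at most 0.0667 CPM and Trac, the highest, 2.29 CPM. Xist, a transcript of female cells, was raised in both conditions' replicate 2, to 72.0 CPM in the Treg-depleted and 2713 CPM in the Treg-sufficient library, against 0.967 to 2.26 CPM in the other 6 libraries. Both of these libraries belong to experiment 1, so folds within experiment 1 are also given without them.

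Bcl6 carried the sequence feature that was rarest among these genes, and it is shown for that reason. STAT proteins bind palindromes of the form TTCNNNGAA, which reads the same on both strands. The 250 bases before the start of a transcript were searched for it in 32851 RefSeq windows (GRCm38.p6), of which 7.02% held at least 1 match and 0.0274% (9 windows) held 3. Of the 10 genes, 9 had a window, 12 windows in all, and matches were found in the windows of Bcl6 and Socs3 alone. Bcl6 has a distal start, with 1 match that begins 118 bases before it, and a second start further along the gene, with matches that begin 168, 122 and 88 bases before it. The Socs3 match begins 154 bases before the start. Capitals mark the matches, none of which overlap, all sequences read 5′ to 3′ on the minus strand, and the Socs3 sequence is the 59 bases around its match.
Bcl6 distal start, chr16:23988853-23989102: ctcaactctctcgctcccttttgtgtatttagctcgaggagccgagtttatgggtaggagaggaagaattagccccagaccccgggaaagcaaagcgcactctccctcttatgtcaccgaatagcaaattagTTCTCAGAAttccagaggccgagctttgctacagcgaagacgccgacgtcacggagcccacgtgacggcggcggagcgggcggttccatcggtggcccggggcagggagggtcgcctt
Bcl6 second start, chr16:23981284-23981533: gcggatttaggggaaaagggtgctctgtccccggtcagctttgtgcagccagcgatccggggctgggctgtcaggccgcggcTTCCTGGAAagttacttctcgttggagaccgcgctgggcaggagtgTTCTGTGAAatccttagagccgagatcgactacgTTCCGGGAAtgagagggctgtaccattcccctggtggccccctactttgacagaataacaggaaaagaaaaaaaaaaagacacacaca
Socs3, chr11:117969487-117969545: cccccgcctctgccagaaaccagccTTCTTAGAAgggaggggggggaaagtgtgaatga
A match is a description of letters. The Cish, Stat3, Stat5a, Stat5b, Socs1, Il6st and Osmr windows held none.

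The levels of the 10 genes spread over a wide range. Levels between genes are compared as CPM per kilobase of merged exon length, on library sizes scaled by the TMM method, and the length includes exons of retained-intron transcripts, which lowers the value of genes such as Cish. Over the 8 libraries Socs3 stood highest, at a mean of 55.9 CPM per kilobase (range 17.3 to 123), followed by Stat3 at 31.0 (19.8 to 55.3), Bcl6 at 14.4 (9.22 to 25.3), Il6st at 9.78, Osmr at 9.61 and Stat5b at 8.82. Cish averaged 3.33 CPM per kilobase, Stat5a 2.91, Socs1 1.19 and Socs2 0.494. Ranges of neighbours in this order overlapped at every step except that between Stat5a and Socs1. Within libraries some steps were uniform: Stat3 exceeded Bcl6, Bcl6 exceeded Il6st and Stat5b exceeded Cish in 8 of 8 libraries, while Osmr exceeded Stat5b in 3 of 8.

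**Figure D1:**
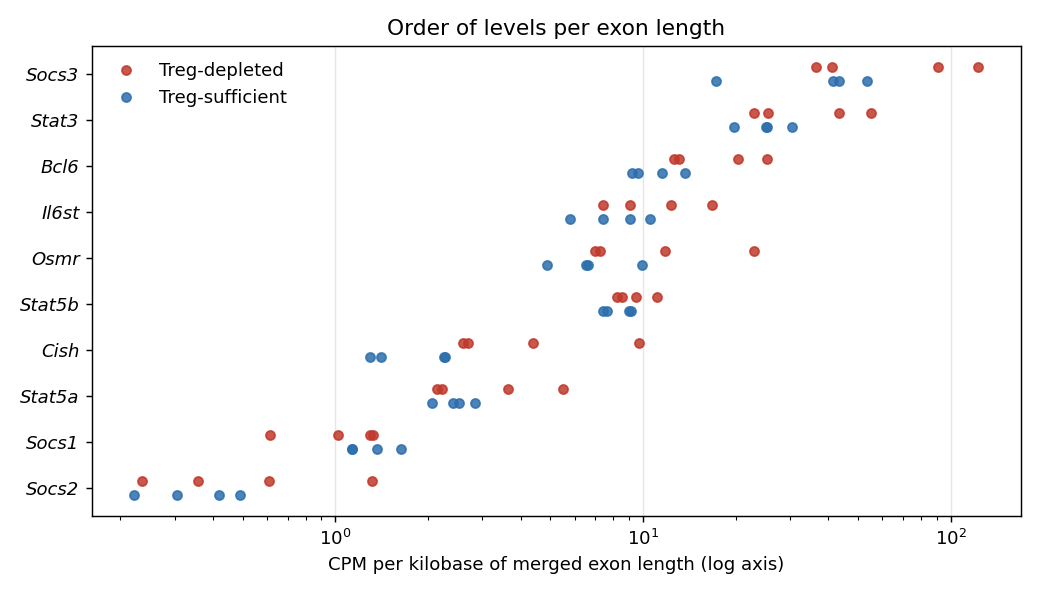
CPM per kilobase of merged exon length (log axis) for the 10 genes in order of their mean, with a point for each of the 4 Treg-depleted (red) and 4 Treg-sufficient (blue) libraries. Socs3 and Stat3 lead at means of 55.9 and 31.0, and Socs1 and Socs2 are lowest at 1.19 and 0.494.

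The comparison between conditions asks what the loss of regulatory T cells changes in these cells after injury. In experiment 1, 9 of the 10 genes stood higher in both Treg-depleted libraries than in both Treg-sufficient ones, with Cish, Socs2 and Socs3 furthest apart, and only Socs1 was lower. In experiment 2 the differences were small, and Cish, Bcl6 and Osmr were the 3 genes whose Treg-depleted libraries both lay above the Treg-sufficient ones. Socs1, Socs2 and Socs3 were the 3 genes whose Treg-depleted libraries both lay below them. Over all 16495 genes tested, 18.6% lay apart upward in experiment 1 and 16.7% in experiment 2. Apart downward lay 19.0% in experiment 1 and 15.9% in experiment 2. Because the 10 genes were chosen with these contrasts known, among them the values of Cish in experiment 1 and of Bcl6 over both experiments, the differences between conditions are a description with no test.

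Cish encodes a SOCS family protein induced by STAT5 that damps signalling from interleukin-2, growth hormone and related receptors (ENSMUSG00000032578, chromosome 9, 107296026 to 107302784, plus strand; GENCODE M21 on GRCm38, as are the positions below). In experiment 1 it stood at 62.4 and 28.1 CPM in the Treg-depleted libraries, against 9.05 and 8.37 CPM in the Treg-sufficient libraries. In experiment 2 it stood at 17.3 and 16.6 CPM in the Treg-depleted libraries, against 14.4 and 14.6 CPM in the Treg-sufficient libraries. It was the only one of the 10 genes whose 4 Treg-depleted libraries all exceeded the 4 Treg-sufficient libraries, which 1.27% of all genes tested did. The log2 fold change, Treg-depleted over Treg-sufficient, was 2.38 (standard error, SE, 0.34) in experiment 1 and 0.22 (SE 0.33) in experiment 2, a fold of 5.20 beside 1.17. Without Treg-depleted replicate 1 the log2 fold change in experiment 1 was 1.67, and without both libraries with raised Xist reads, which leaves 1 library against 1, it was 2.74. Exons of Cish overlap antisense genes, as those of Bcl6 do, and with the strand setting unknown their reads may not be told apart.

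Socs2, an inhibitor of growth hormone signalling that STAT5 also induces, was the lowest of the 10 genes per exon length (ENSMUSG00000020027, chromosome 10, 95385362 to 95417180, minus strand). In experiment 1 it stood at 12.6 and 5.78 CPM in the Treg-depleted libraries, against 2.91 and 2.12 CPM in the Treg-sufficient libraries. In experiment 2 the order was turned round, with 2.25 and 3.41 CPM in the Treg-depleted libraries, against 4.65 and 3.97 CPM in the Treg-sufficient libraries. The groups did not overlap in either experiment, and the log2 fold changes were 1.87 (SE 0.45) and -0.61 (SE 0.44). Without Treg-depleted replicate 1 the value in experiment 1 was 1.18, and without both libraries with raised Xist reads 2.07.

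Socs3 is the main brake on gp130, the shared signalling chain of interleukin-6 family receptors, and a classical Stat3 target (ENSMUSG00000053113, chromosome 11, 117966079 to 117970047, minus strand). In experiment 1 it stood at 263 and 356 CPM in the Treg-depleted libraries, against 154 and 50 CPM in the Treg-sufficient libraries. In experiment 2 it stood at 105 and 119 CPM in the Treg-depleted libraries, against 120.2 and 125 CPM in the Treg-sufficient libraries, again without overlap but in the other direction. The log2 fold changes were 1.60 (SE 0.44) and -0.13 (SE 0.43). The first of these depended on which libraries were kept: without both libraries with raised Xist reads it was 0.73, without Treg-sufficient replicate 2 alone 0.97 and without Treg-sufficient replicate 1 alone 2.63.

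Socs1, which blocks JAK kinase activity and limits interferon signals, stood lower in the Treg-depleted libraries of experiment 1, where Cish, Socs2 and Socs3 stood higher, and lower in those of experiment 2, as Socs2 and Socs3 did (ENSMUSG00000038037, chromosome 16, 10782240 to 10785536, minus strand). It stood at 3.78, 3.87, 1.78 and 2.98 CPM in Treg-depleted replicates 1 to 4, against 4.0, 4.75, 3.28 and 3.28 CPM in Treg-sufficient replicates 1 to 4. Both Treg-depleted libraries lay below both Treg-sufficient libraries in each experiment, a position that 19.0% of all genes tested held in experiment 1 and 15.9% in experiment 2. The log2 fold changes of Socs1 were -0.19 (SE 0.35) and -0.46 (SE 0.36), against errors of similar size.

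**Figure D2:**
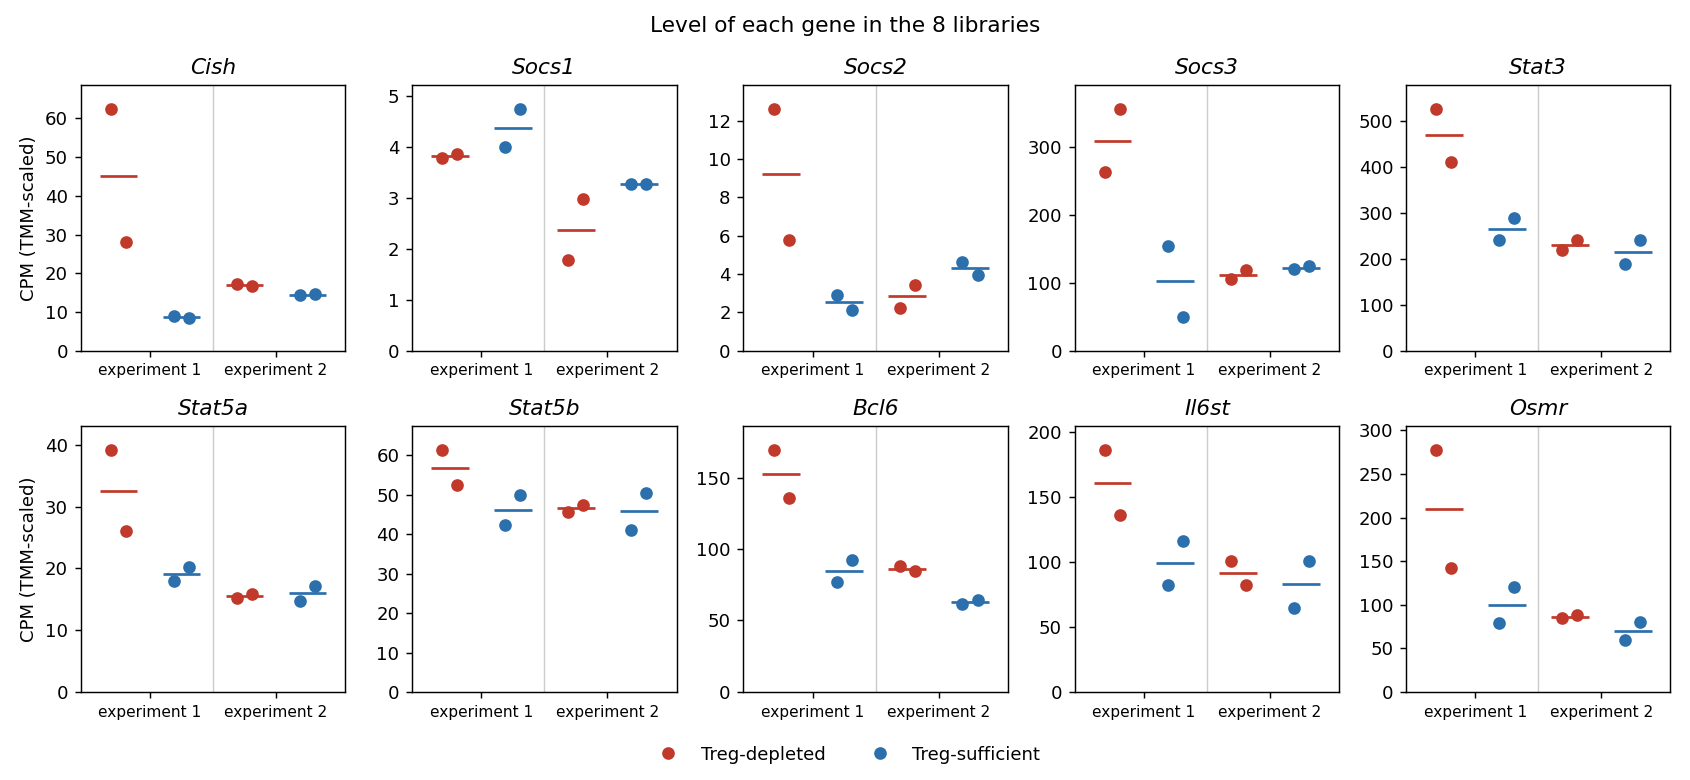
CPM on TMM-scaled library sizes of each of the 10 genes, with a point per library, Treg-depleted in red and Treg-sufficient in blue, split by experiment, and a bar at the mean of each pair. In experiment 1 the red points lie above the blue ones for every gene but Socs1. In experiment 2 they lie above for Cish, Bcl6 and Osmr and below for Socs1, Socs2 and Socs3.

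The STAT genes had smaller folds. Stat3 (ENSMUSG00000004040, chromosome 11, 100885098 to 100939540, minus strand) stood at 527, 412, 219 and 242 CPM in Treg-depleted replicates 1 to 4, against 240.5, 290.0, 189 and 241 CPM in Treg-sufficient replicates 1 to 4. Only the Treg-depleted libraries of experiment 1 stood apart, with a log2 fold change of 0.82 (SE 0.19) there and 0.10 (SE 0.19) in experiment 2. Stat5a, which responds to growth hormone, prolactin and interleukin-2 family cytokines (ENSMUSG00000004043, chromosome 11, 100859351 to 100885169, plus strand), stood at 39.1, 26.0, 15.2 and 15.8 CPM in Treg-depleted replicates 1 to 4, against 18.0, 20.3, 14.7 and 17.2 CPM in Treg-sufficient replicates 1 to 4. Its log2 fold change was 0.77 (SE 0.23) in experiment 1 and -0.04 (SE 0.23) in experiment 2. Its close paralogue Stat5b (ENSMUSG00000020919, chromosome 11, 100780731 to 100850724, minus strand) moved least, at 61.3, 52.5, 45.7 and 47.4 CPM in Treg-depleted replicates 1 to 4, against 42.3, 50, 41.1 and 50.5 CPM in Treg-sufficient replicates 1 to 4. The log2 fold change of Stat5b was 0.30 (SE 0.17) in experiment 1 and 0.02 (SE 0.17) in experiment 2. Reads that fit both Stat5 genes equally were not counted, and the exons of Stat3 and Stat5a overlap on opposite strands, so values at shared bases are uncertain. Without both libraries with raised Xist reads Stat3 had 1.09, Stat5a 1.08 and Stat5b 0.49 in experiment 1, and without Treg-depleted replicate 1 they had 0.61, 0.42 and 0.16.

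Bcl6 (ENSMUSG00000022508, chromosome 16, 23965052 to 23988852, minus strand) stood higher in the Treg-depleted libraries of both experiments. In experiment 1 it stood at 169 and 136 CPM in the Treg-depleted libraries, against 77.0 and 92.1 CPM in the Treg-sufficient libraries. In experiment 2 it stood at 88.0 and 84.5 CPM in the Treg-depleted libraries, against 61.8 and 64.5 CPM in the Treg-sufficient libraries. The groups were apart within each experiment, although the Treg-depleted libraries of experiment 2 overlapped the Treg-sufficient libraries of experiment 1. The log2 fold change was 0.85 (SE 0.15) in experiment 1, 0.45 (SE 0.15) in experiment 2 and 0.65 (SE 0.12) over both. Leaving out any 1 library moved this last value between 0.54 and 0.71, and without both libraries with raised Xist reads Bcl6 had 1.09 in experiment 1.

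The receptor chains Osmr and Il6st both stood apart in experiment 1. Osmr, the chain that gives the receptor its specificity for oncostatin M and that also pairs with Il31ra (ENSMUSG00000022146, chromosome 15, 6813577 to 6874969, minus strand), stood at 277 and 142 CPM in the Treg-depleted libraries of experiment 1, against 79.3 and 120.0 CPM in the Treg-sufficient libraries. In experiment 2 it stood at 84.8 and 87.9 CPM in the Treg-depleted libraries, against 59.2 and 80.4 CPM in the Treg-sufficient libraries. The groups were apart in both experiments, with log2 fold changes of 1.07 (SE 0.33) and 0.31 (SE 0.33). Without Treg-depleted replicate 1 the value in experiment 1 was 0.49, and without both libraries with raised Xist reads it was 1.76. Il6st, which encodes gp130 (ENSMUSG00000021756, chromosome 13, 112464070 to 112510086, plus strand), stood at 186, 136, 101 and 82.1 CPM in Treg-depleted replicates 1 to 4, against 82.4, 116, 64.5 and 101 CPM in Treg-sufficient replicates 1 to 4. Its groups were apart in experiment 1 and overlapped in experiment 2, with log2 fold changes of 0.70 (SE 0.27) and 0.14 (SE 0.27). In experiment 1 Il6st had 0.44 without Treg-depleted replicate 1 and 1.13 without both libraries with raised Xist reads.

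**Figure D3:**
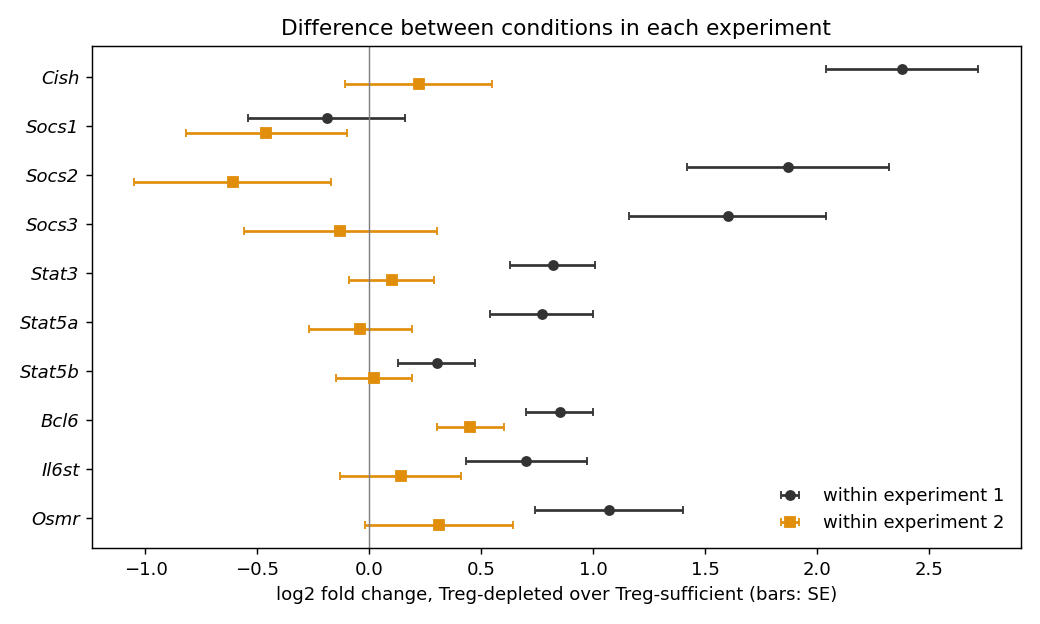
Log2 fold change, Treg-depleted over Treg-sufficient, of the 10 genes within experiment 1 (dark circles) and within experiment 2 (orange squares), with bars for the SE of a model that shares its estimate of spread over 4 groups of 2 libraries. In experiment 1 all values but that of Socs1 are positive, up to 2.38 for Cish, and in experiment 2 they run from -0.61 for Socs2 to 0.45 for Bcl6.

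Over the 10 genes the median log2 fold change was 0.84 in experiment 1 and 0.06 in experiment 2, beside 0.01 and 0.00 over all genes tested. In experiment 1, 9 of the 10 values were positive, against 52.0% of all genes, and in experiment 2 6 were, against 50.2%. With 1 library left out the values in experiment 2 ran through 0 for Il6st (-0.14 to 0.50), Stat3 (-0.06 to 0.29), Stat5b (-0.12 to 0.18) and Stat5a (-0.15 to 0.08). A gene is called below when edgeR's quasi-likelihood test gave it an adjusted p under 0.05 over the 16495 genes. In experiment 1 Cish was called (0.224% of all genes were called higher and 0.382% lower), and 8 of the 10 had an unadjusted p under 0.05, as did 11.1% of all genes. Cish was also called in 7 of 14 alternative analyses, but not by limma-voom, and not without Treg-depleted replicate 3 or 4 or without any of the 4 Treg-sufficient libraries. In experiment 2 edgeR called 0 of the 10, as it did 0% of all genes, and 1 of the 10 had an unadjusted p under 0.05, as did 1.75% of all genes. Over both experiments together edgeR also called 0 of the 10, beside 0% of all genes, and 4 had an unadjusted p under 0.05, as did 7.12% of all genes. DESeq2 called 6 of the 10 in experiment 1, where it called 4.64% of all genes, 0 in experiment 2 (0.00606%) and Bcl6 over both (0.550%). Without the filter on low counts edgeR called 7 of the 10 in experiment 1 (4.17% of all genes), 0 in experiment 2 (0.478%) and 5 over both (2.97%). Nothing is read from these counts, since the choice of genes used the same contrasts.

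The log2 fold change between conditions was lower in experiment 2 than in experiment 1 for all 10 genes, with differences from -0.27 log2 units for Socs1 to -2.48 for Socs2 (median -0.74, beside -0.01 over all genes). Cish differed by -2.16 (SE 0.47) and Socs3 by -1.73 (SE 0.61). edgeR called 0 of the 10 for this difference, beside 0% of all genes, with 5 at an unadjusted p under 0.05 (5.60% of all genes), while DESeq2 called Cish and Socs2 (1.22% of all genes). Without the filter on low counts edgeR called Cish, Socs2 and Socs3 (1.93% of all genes). Nothing is read from these calls either, for the same reason. For Socs1 the difference turned to 0.06 without Treg-depleted replicate 3.

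Markers of other cell types and of the sort were measured beside these values. In bulk samples fewer cells of a type and less RNA per cell cannot be told apart. In experiment 1, 8 fibroblast markers summed to 18.9 to 19.9 CPM in Treg-depleted libraries and 37.3 to 90.3 CPM in Treg-sufficient libraries, with 1 of 8 higher. Lum, Pdgfrb and Dpt were at 0 in at least 1 library. The 6 T cell markers summed to 0.439 to 0.448 CPM in Treg-depleted libraries and 0.416 to 0.844 CPM in Treg-sufficient libraries of experiment 1, and each of the 6 was at 0 in at least 1 library. The 4 regulatory T cell markers summed to 13.7 to 36.9 CPM in Treg-depleted libraries and 12.2 to 14.5 CPM in Treg-sufficient libraries, nearly all of it from Ikzf2, and Foxp3 was at 0 in at least 1 library. Neutrophil markers summed to 3.75 to 10.2 CPM in Treg-depleted libraries and 3.45 to 3.81 CPM in Treg-sufficient libraries, with 2 of 5 higher. Ly6g had 0 counts in every library, and Mpo was at 0 in at least 1. Macrophage and Langerhans cell markers summed to 4.16 to 5.81 CPM in Treg-depleted and 6.20 to 6.31 CPM in Treg-sufficient libraries. Of these, 0 of 6 were higher. The 8 follicle and keratinocyte markers summed to 18038 to 30779 CPM in Treg-depleted libraries and 28759 to 28834 CPM in Treg-sufficient libraries, with 1 of 8 higher. Endothelial markers summed to 1.75 to 2.26 CPM in Treg-depleted and 3.96 to 4.37 CPM in Treg-sufficient libraries, with 0 of 5 higher. Melanocyte markers summed to 19.2 to 35.9 CPM in Treg-depleted and 31.4 to 52.4 CPM in Treg-sufficient libraries. In experiment 2 follicle and keratinocyte markers summed to 16910 to 19164 CPM in Treg-depleted and 19968 to 20909 CPM in Treg-sufficient libraries. There 5 of 8 were higher. The part of these differences in the values above was not tested.

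The levels in experiment 2 were also set against those in experiment 1. The genes were chosen with the values of experiment 1 known, and its Treg-depleted libraries enter this contrast too, so it is not independent of the choice and is likewise a description with no test. Bcl6 stood lower in experiment 2 in both conditions. In Treg-depleted libraries it stood at 88.0 and 84.5 CPM in experiment 2, against 169 and 136 CPM in experiment 1, and in Treg-sufficient libraries at 61.8 and 64.5 CPM in experiment 2, against 77.0 and 92.1 CPM in experiment 1. The log2 fold change, experiment 2 over experiment 1, was -0.62 (SE 0.12), and Bcl6 was the one gene of the 10 that edgeR called, where 0.721% of all genes were called lower and 0.903% higher. The call held in 6 of 14 alternatives, and it ended without any 1 of the 8 libraries except Treg-sufficient replicate 1 and without both libraries with raised Xist reads. Osmr had -0.90 (SE 0.26), Stat5a -0.67 (SE 0.20) and Stat3 -0.66 (SE 0.18), and the other 6 genes had values of -0.60 to -0.15. Socs1 and Stat5a were lower in all 4 libraries of experiment 2 than in any of experiment 1, as were 5.86% of all genes, and none was higher in all 4, as 7.50% of all genes were. DESeq2 called Bcl6, Osmr, Stat3 and Stat5a (12.9% of all genes), and edgeR on unfiltered counts called 6 of the 10 (8.85%). Nothing is read from these calls, since the choice of genes drew on the same libraries. Melanocyte markers summed to 112 to 360.1 CPM in experiment 2 and 19.2 to 52.4 CPM in experiment 1, and follicle and keratinocyte markers to 16910 to 20909 CPM in experiment 2 and 18038 to 30779 CPM in experiment 1. Their part in the difference between experiments was not tested.

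Within each condition, a split chosen after the data were seen, the values differed. The median over the 10 genes was -1.05, with 10 of 10 negative, between Treg-depleted libraries and -0.26, with 3 of 10 positive, between Treg-sufficient libraries. Over all 16495 genes tested the medians were -0.03 (8742 negative) and 0.00 (8322 positive). The 10 genes were chosen with values of experiment 1 known, so these counts are a description. Between Treg-sufficient libraries alone Cish stood at 14.4 and 14.6 CPM in experiment 2, against 9.05 and 8.37 CPM in experiment 1. Its log2 fold change was -1.42 (SE 0.33) between Treg-depleted libraries and 0.74 (SE 0.33) between Treg-sufficient libraries. Socs2 had -1.70 (SE 0.44) between Treg-depleted and 0.78 (SE 0.44) between Treg-sufficient libraries. Socs3 had -1.47 (SE 0.44) between Treg-depleted and 0.26 (SE 0.43) between Treg-sufficient libraries. Bcl6 had negative values in both, at -0.82 (SE 0.15) between Treg-depleted and -0.42 (SE 0.15) between Treg-sufficient libraries. The Treg-sufficient levels of Cish and Socs2 in experiment 1, against which their folds were taken, thus lay below those of experiment 2 in all libraries. The share of all genes that did so was not counted.

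The other genes of the pathway, 68 in a list drawn up by role with earlier results known, gave few calls between conditions. Of these 61 were tested, and the other 7, among them the ligand genes Osm (at most 3 counts) and Il31 (0 counts), were too low. In experiment 1 edgeR called 3 of 61 (4.92%) higher and 0 lower, where 0.606% of all genes were called in either direction. In experiment 2 and over both experiments edgeR called 0 of 61, with 2 and 8 at an unadjusted p under 0.05 (1.75% and 7.12% of all genes). DESeq2 called 9 of the list in experiment 1 (4.64% of all genes) and 2 over both (0.550%). The median log2 fold change over the list was 0.29 in experiment 1 and 0.06 in experiment 2. The list was drawn up with earlier results known, so its calls and shares, here and below, are a description and no independent support.

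All 3 calls were among the 14 tested targets of Stat3 or STAT5 known from other tissues. Bcl3, a nuclear partner of NF-kappaB that Stat3 induces, stood at 23.9 and 21.8 CPM in the Treg-depleted libraries of experiment 1, against 5.70 and 6.25 CPM in the Treg-sufficient libraries. In experiment 2 it stood at 1.74 and 2.38 CPM in the Treg-depleted libraries, against 2.71 and 3.21 CPM in the Treg-sufficient libraries. Bcl3 thus rose in experiment 1 (log2 fold change 1.93, SE 0.26, edgeR adjusted p = 0.0284) and had -0.52 (SE 0.26) in experiment 2. The call ended by leaving out any 1 library except Treg-depleted replicate 2, and without both libraries with raised Xist reads. The acute-phase regulator Cebpd rose too (3.49, SE 0.36, edgeR adjusted p = 0.0151), to 61.5 and 71.6 CPM in Treg-depleted libraries, against 8.21 and 3.65 CPM in Treg-sufficient libraries of experiment 1. In experiment 2 Cebpd stood at 5.35 and 4.33 CPM in Treg-depleted libraries, against 3.62 and 3.61 CPM in Treg-sufficient libraries (0.42, SE 0.35, edgeR adjusted p = 1.00). The protease inhibitor Serpina3n rose (5.89, SE 0.76, edgeR adjusted p = 0.0257), to 949.6 and 247 CPM in Treg-depleted libraries, against 5.05 and 15.1 CPM in Treg-sufficient libraries. In experiment 2 Serpina3n stood at 8.02 and 7.77 CPM in Treg-depleted libraries, against 1.94 and 1.75 CPM in Treg-sufficient libraries. Its value there was 2.09 (SE 0.73), which edgeR's main analysis did not call. On unfiltered counts edgeR called Serpina3n in experiment 2, and DESeq2 did not. Cebpd was called in 13 of 14 alternatives, the exception being without Treg-depleted replicate 3, and Serpina3n in 8 of 14, with values of 4.59 to 7.51, but not without Treg-depleted replicate 3 or 4 or any 1 Treg-sufficient library. Mcl1, a survival factor and the target of highest CPM, stood at 302, 306, 230.1 and 206 CPM in Treg-depleted replicates 1 to 4, against 199, 224, 175 and 209 CPM in Treg-sufficient replicates 1 to 4, and was not called.

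**Figure D4:**
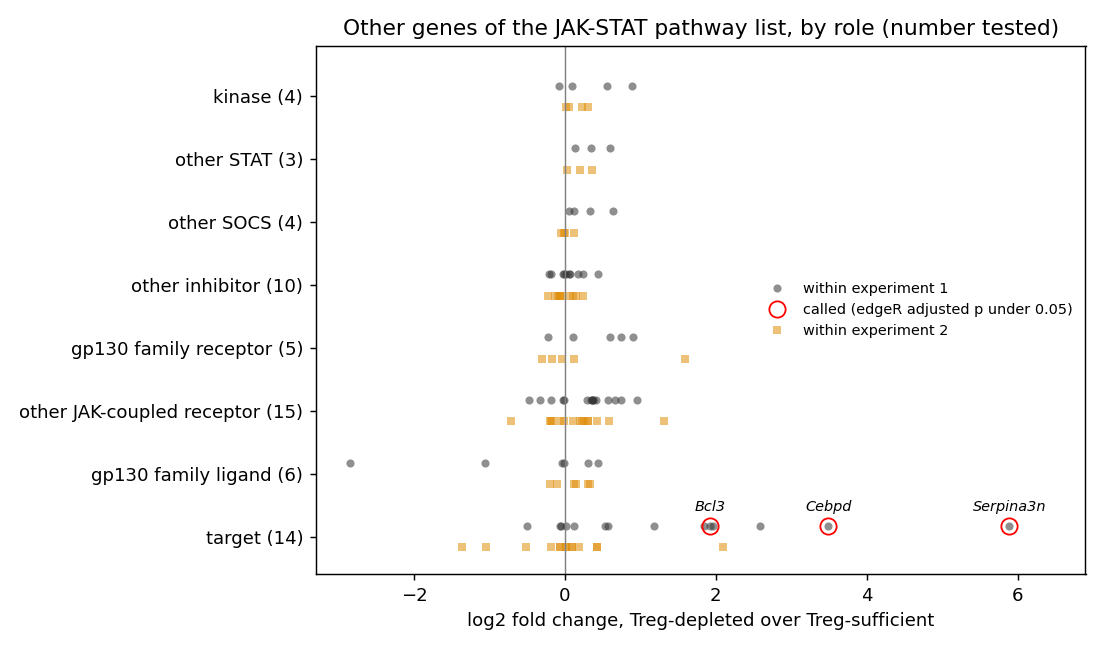
Log2 fold change, Treg-depleted over Treg-sufficient, of the 61 tested genes of the pathway list by role, within experiment 1 (grey circles) and within experiment 2 (orange squares), with called genes ringed in red. The 3 called genes, Bcl3, Cebpd and Serpina3n, are targets in experiment 1, and the 10 other inhibitors have a median of 0.04 in experiment 1.

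Outside the targets, edgeR's main analysis, on filtered counts from all libraries, called no gene of the list between conditions. On unfiltered counts edgeR called Il31ra and Stat2 over both experiments, Il13ra1, Il31ra, Il4ra and Socs5 in experiment 1 and Il31ra in experiment 2. DESeq2 called Jak2, Il4ra and Il13ra1 in experiment 1. Jak1, the kinase of most cytokine receptors and the one of 4 with the highest CPM, had a log2 fold change between conditions of 0.06 (SE 0.09), and Jak3, usually confined to blood cells, 0.61 (SE 0.27) at 21.6, 12.7, 5.77 and 5.43 CPM in Treg-depleted replicates 1 to 4, against 8.57, 9.94, 3.13 and 5.93 CPM in Treg-sufficient replicates 1 to 4. Among other STATs, Stat6 of interleukin-4 signalling had 0.08 (SE 0.12) and Stat2 of interferon signalling 0.48 (SE 0.28). Socs5, both the highest in CPM and the furthest from 0 of the 4 other SOCS genes, had 0.30 (SE 0.17). Of the phosphatases, ligases and PIAS proteins that limit the pathway, Ptpn11 had 0.00 (SE 0.09) and Cbl 0.20 (SE 0.21). Among receptors outside the gp130 family the gene of highest CPM was Il13ra1 (0.37, SE 0.19), and the furthest from 0 was Crlf2 of the TSLP receptor (-0.52, SE 0.29). Ligand transcripts were scarce: Ctf1, the highest, stood at 9.56 to 14.9 CPM in Treg-depleted libraries and 12.5 to 15.6 CPM in Treg-sufficient libraries, and Cntf at 0 to 0.532 CPM in Treg-depleted libraries and 0.166 to 0.724 CPM in Treg-sufficient libraries.

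Receptors of the gp130 family held 3 of the 5 calls that the list gave between experiments. Lifr, the receptor chain for leukaemia inhibitory factor, was lower in experiment 2 (-0.77, SE 0.15, edgeR adjusted p = 0.0483), and so was Il11ra1, the interleukin-11 receptor (-0.76, SE 0.15, edgeR adjusted p = 0.0484). Cntfr, the receptor of ciliary neurotrophic factor, was higher, at 118 to 217 CPM in the 4 libraries of experiment 2, against 67.6 to 107 CPM in the 4 of experiment 1. Its log2 fold change was 1.00 (SE 0.19, edgeR adjusted p = 0.0483), and the experiments did not overlap. Il4ra, the receptor chain of interleukins 4 and 13, was lower (-1.77, SE 0.24, edgeR adjusted p = 0.0439), at 19.3 to 25.3 CPM in experiment 2, against 44.9 to 114 CPM in experiment 1. The cyclin gene Ccnd1 was higher (0.85, SE 0.17, edgeR adjusted p = 0.0485). These 5 of 61 (8.20%) compare with 1.62% of all genes. Each call ended when any 1 library other than Treg-sufficient replicate 1 was left out, or both libraries with raised Xist reads. The Ccnd1 call also ended with upper-quartile scaling. Over the 14 alternatives the values ran from -0.88 to -0.64 for Lifr, -0.86 to -0.60 for Il11ra1 and 0.88 to 1.12 for Cntfr. Il4ra ran from -1.98 to -1.60 and Ccnd1 from 0.73 to 1.02. Il31ra, the partner of Osmr in the interleukin-31 receptor, was not called between experiments (-1.51, SE 0.35, edgeR adjusted p = 0.0631) or conditions (1.16, SE 0.35, edgeR adjusted p = 0.686). It stood at 387, 202, 206 and 70.8 CPM in Treg-depleted replicates 1 to 4, against 168, 184, 44.4 and 47.5 CPM in Treg-sufficient replicates 1 to 4.

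Genes whose profile over the 8 libraries was most like that of Cish, Socs3 or Bcl6 were found by the mean absolute difference of log2 CPM, each gene centred on its own mean, among genes of at least 5 CPM. These profiles share library, depth and sort, and the measure is a description. For Cish, whose own mean deviation was 0.636 log2 units, the nearest were the kinase gene Sik1 (0.217), the growth factor inhibitor gene Spry4 (0.266), Hivep3 (0.290), Cd200 (0.297) and the small Maf factor gene Maff (0.309). Sik1 stood at 245, 124, 127 and 79.3 CPM in Treg-depleted replicates 1 to 4, against 52.9, 36.3, 64.6 and 62.9 CPM in Treg-sufficient replicates 1 to 4. For Socs3 (own deviation 0.610) they were Bhlhe40 (0.190), Junb (0.202), Ier2 (0.228), Ier3 (0.259) and Nfkbiz (0.277), most of them genes that respond to a stimulus within minutes to hours. Junb stood at 317, 330.4, 161 and 140.1 CPM in Treg-depleted replicates 1 to 4, against 128, 53.0, 148 and 134 CPM in Treg-sufficient replicates 1 to 4, with its lowest value in Treg-sufficient replicate 2, as for Socs3. For Bcl6 (own deviation 0.369) they were Kank1 (0.0988), Stat3 (0.0996), Rbpj (0.112), the DNA-binding factor of Notch signalling, Boc (0.115) and Jcad (0.118), so that Stat3 was the second nearest of all genes compared.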

How the data were processed

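RNA of frozen sorted cells was made into libraries with a stranded mRNA kit, per the labels' protocols. The submitters' processing notes name TopHat2 (version 2), SAMtools, HTSeq, DESeq2 and the build GRCm38.p4, with no role; the strand setting and annotation release were not found there. The authors deposited raw read counts for 46078 genes, with no normalization. Tallies of unassigned reads (26.2 to 30.6% aligned to several places, 6.63 to 10.8% in no gene, 2.72 to 3.01% ambiguous) stayed out of library sizes and tests. GENCODE M21 gave symbols for 45143 genes.

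Genes passing filterByExpr (minimum count 10; 16495 genes) were tested with edgeR 4.0.16 under R 4.3.3 (TMM, quasi-likelihood F-test, Benjamini-Hochberg adjustment over all of them, threshold 0.05). Conditions and experiments were compared in a model with both terms, and effects within an experiment in 4 groups of 2 libraries. The SE is the log2 fold change over the root of F. The steps were also run on simulated counts with added folds, and the outcome is not reported here. Alternatives were 2 other scalings, no filter, DESeq2 1.42.0, limma-voom 3.58.1, leaving out each library or both with raised Xist reads and, between conditions, 3 other models. The members, lists, markers and naming rule were chosen with earlier results of these data known. A test of the members between experiments had been planned, and is given without p-values because its libraries are those the choice drew on. List genes named are those called, plus the highest in CPM and the furthest from 0 between conditions in each role, and genes named for likeness are the nearest 5.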

Additional observations from a re-analysis of the deposited data

Results flagged for a closer look

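Socs2, Socs3 and Bcl3 had Treg-depleted libraries above the Treg-sufficient ones in experiment 1 and below them in experiment 2, in each library. Of all genes tested 18.6% lay apart upward in experiment 1 and 15.9% downward in experiment 2, and the share with both was not counted. The condition effect in experiment 2 minus that in experiment 1 was -2.48 for Socs2, -1.73 for Socs3 and -2.45 for Bcl3 (log2 units). edgeR called none of the 3 for this difference, nor any other of the 16495 genes (923 had an unadjusted p under 0.05), while DESeq2 called Socs2 and Bcl3. Lcn2 (-3.96) and Sh2b3 (-0.47) of the pathway list were turned round in the same way, and DESeq2 called Lcn2.

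Cebpd stood at 8.21 CPM in Treg-sufficient replicate 1 and at 3.61 to 3.65 CPM in the other 3 Treg-sufficient libraries, a gap of 0.990 of the group's range. It was the only such gap among 62 groups of 4 libraries (31 genes) looked at, where chance gives about 1 in 20.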

How the results depend on the processing

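With DESeq2 size factors or upper-quartile factors no count of calls moved by over 1.5 times, and the signs over the 10 genes were the same (9 positive of 10 in experiment 1, 6 in experiment 2). Without the filter on low counts edgeR called 820 genes for condition, 1152 for condition in experiment 1, 132 in experiment 2, 534 for the difference of these effects and 2443 between experiments, with 6, 11, 2, 8 and 18 of the pathway list. DESeq2 called 82, 721, 1, 182 and 2133, with 2, 9, 0, 5 and 17 of the list, and limma-voom called 296 genes between experiments, with 11 of the list. Without both libraries with raised Xist reads 487 genes were called in experiment 1, 89 for the difference in effect and 2 between experiments, with 6, 1 and 0 of the list. Leaving out 1 library gave 0 to 442 calls in experiment 1, 0 to 9 for the difference in effect and 0 to 651 between experiments, with 0 to 5, 0 to 2 and 0 to 9 of the list. The 0 calls in experiment 1 came without Treg-depleted replicate 3 and the 442 without Treg-depleted replicate 2. The cause was not tested.

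Between experiments Cish ran from -0.67 to 0.11 and Socs2 from -0.89 to 0.01 with 1 library left out, both turning without Treg-depleted replicate 1. In Treg-sufficient libraries alone, a split added after seeing the data, Cish had 0.74, Socs2 0.78 and Socs3 0.26. Ptpn11 between conditions ran from -0.07 to 0.04 with 1 library left out and was 0.00 without the experiment term. With the replicate block (the title letter in place of the experiment) 0 genes were called between conditions, as by edgeR with the other designs. The deviations of libraries with the same letter correlated at 0.179, 0.130, 0.0941 and 0.314, and 2 of 4 matched their own letter best. Within experiments the correlations were -0.0953 and -0.118. Each is shared by the 2 letters of an experiment, since groups held 2 libraries there. Both libraries with raised Xist reads carry the same letter. Whether the letters pair libraries is not settled by these values.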
